A study of Mus musculus with 12 samples.

Results

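The P53 target genes of apoptosis described here are *Bbc3*, *Bax*, *Pmaip1*, *Perp*, *Tnfrsf10b*, *Apaf1*, *Aen*, *Zmat3*, *Phlda3* and *Pidd1*. They were chosen by name, with earlier results of these data known, as genes that P53 is known to activate and whose products act in cell death. They make up 10 of the 24881 gene symbols for which expression was listed. RNA-seq was done on R1 mouse ESCs that carry the FUCCI reporters, fluorescent proteins whose presence changes with cell cycle phase, and all cells were sorted in G1 phase. The WT and P53-/- ESCs were grown either in serum or in 2i, a serum-free medium with inhibitors of MEK and of glycogen synthase kinase that holds ESCs in the ground state of pluripotency. The 4 groups (WT 2i, P53-/- 2i, WT serum and P53-/- serum) had 2 libraries each. P53-/- ESCs were made with CRISPR/Cas9, by guides against an exon of *Trp53* that its isoforms share, and grown from single sorted cells. The study names clones 1 and 2 for its RNA-seq, and the columns do not tell which clone gave which library. Libraries are numbered here in the order in which they are listed, and nothing in the labels says whether those of WT came from separate cultures, so that p values measure the spread between these libraries only. The labels hold 2 pairs of WT 2i samples, 1 of them for a comparison with P21-/- ESCs, and the WT 2i columns were matched to the other pair by the word order of its titles alone. No DNA-damaging agent is given in the labels of any group.

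P53 is a transcription factor that binds DNA as a tetramer. In its mitochondrial arm, BH3-only proteins such as PUMA (*Bbc3*) and NOXA (*Pmaip1*) neutralise the survival members of the BCL2 family, BAX opens the outer membrane of mitochondria, and APAF1 joins the released cytochrome c in the apoptosome that activates caspases. In a second arm, the death receptor encoded by *Tnfrsf10b* receives TRAIL at the cell surface, and PIDD1 is the platform of the PIDDosome, which activates the caspase encoded by *Casp2*. PERP is a membrane protein of cell junctions, AEN a nuclease, ZMAT3 an RNA-binding zinc finger protein and PHLDA3 a pleckstrin homology domain protein that restrains AKT. Pluripotent cells are known for a low threshold for apoptosis.

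P53 recognises a pair of half-sites of 10 bases, and the promoters of these genes were read for it because 9 of these 10 genes were called lower without P53 in 2i. Of the 10 genes, 6 had a promoter in the RefSeq table (GRCm38.p6, 250 bases before to 50 after the start site): *Aen*, *Apaf1*, *Bax*, *Bbc3*, *Phlda3* and *Pidd1*. The other genes are *Pmaip1*, *Perp*, *Tnfrsf10b* and *Zmat3*. The search took any pair of P53 half-sites with at most 2 bases between them, and since the motif is its own reverse complement it covered both strands. The 3 promoters shown are the one nearest to the motif, that of the gene that lost most expression in 2i, and one with a match beside the start site. Capitals mark the best match in each, and the sequences run 5′ to 3′ on the strand of the gene.
*Bax*, minus strand, chr7:45466849-45467148: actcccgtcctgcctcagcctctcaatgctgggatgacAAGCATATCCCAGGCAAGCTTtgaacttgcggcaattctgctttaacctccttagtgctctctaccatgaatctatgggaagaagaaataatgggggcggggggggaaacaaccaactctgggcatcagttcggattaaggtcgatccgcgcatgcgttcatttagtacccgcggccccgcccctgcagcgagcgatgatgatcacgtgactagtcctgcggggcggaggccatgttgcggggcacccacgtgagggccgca
*Bbc3*, plus strand, chr7:16309333-16309632: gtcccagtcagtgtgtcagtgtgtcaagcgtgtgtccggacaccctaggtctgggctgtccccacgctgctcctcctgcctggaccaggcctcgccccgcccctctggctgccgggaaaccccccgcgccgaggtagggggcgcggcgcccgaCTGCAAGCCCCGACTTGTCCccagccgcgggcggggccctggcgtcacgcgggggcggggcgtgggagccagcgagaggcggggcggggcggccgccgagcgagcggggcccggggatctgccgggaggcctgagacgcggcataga
*Aen*, plus strand, chr7:78895677-78895976: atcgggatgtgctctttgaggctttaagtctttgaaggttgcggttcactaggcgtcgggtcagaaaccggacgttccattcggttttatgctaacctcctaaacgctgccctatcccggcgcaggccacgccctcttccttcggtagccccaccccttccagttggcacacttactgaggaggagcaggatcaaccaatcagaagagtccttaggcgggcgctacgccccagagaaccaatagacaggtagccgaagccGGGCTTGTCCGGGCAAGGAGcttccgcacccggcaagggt

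The match in the *Bax* promoter, AAGCATATCCCAGGCAAGCTT, had 1 mismatch and 1 base between its half-sites, and began 212 bases before the start site. A match with at most 1 mismatch was in 0.271% of the 32851 promoters of the table. The best match of *Bbc3* (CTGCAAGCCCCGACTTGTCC, 97 bases before the start site, in the nearest of its 3 promoters) and that of *Aen* (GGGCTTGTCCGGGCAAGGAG, 10 bases after it, in the nearest of its 2 promoters) had 3 mismatches each, as did *Pidd1* with GAGAATTCCTACTGGCTAGCCC. At most 3 mismatches were found in 16.7% of all promoters, a share that takes each promoter singly, so that a gene with several has more chances. *Apaf1* had 4 mismatches and *Phlda3* had 5, which 59.4% and 94.7% of promoters met. A half-site without mismatch was in the promoters of *Bax* and *Aen* and in 8.36% of all promoters. These are letters in a window of 300 bases, and whether P53 bound them is not part of the RNA-seq data. The study also mapped P53 binding by ChIP-seq in serum and 2i ESCs, which was not read here.

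Expression was listed as FPKM (fragments per kilobase of transcript, corrected for library size), so that levels can be compared between genes. Depth, estimated from the steps between low FPKM values, was 5200000 to 13200000 fragments per library, up to a factor common to all. The targeted gene, *Trp53*, had FPKM values of 26.8 and 33.7 in the WT 2i libraries, against 7.25 and 1.88 in the P53-/- 2i libraries. In serum it had 77.6 and 75.1 in the WT libraries, against 16.8 and 3.68 in the P53-/- libraries, so that every library labelled P53-/- was lower than both of its WT libraries without being at 0. It was called lower (adjusted p under 0.1 and more than 1.5-fold) in 2i (limma adjusted p = 0.0547) but not in serum (log2 fold change −3.26, limma adjusted p = 0.15). *Mdm2* and *Cdkn1a*, standard P53 targets, were called lower in both cultures. The FPKM sum of 8 pluripotency markers was 3536 to 4490 over the 8 libraries. Of these markers 7 of 8 had a log2 fold change below 0 without P53 in 2i, and *Klf4* was called lower there (log2 fold change −0.96, limma adjusted p = 0.00782) but not in serum (0.17, limma adjusted p = 0.669). Of 7 fibroblast markers, 2 were listed at 0 in every library and 1, *Thy1*, was high enough to be tested. Their sum was 0.938 to 1.34 in WT 2i and 0.761 to 0.959 in P53-/- 2i, against 7.73 to 8.30 in WT serum and 8.80 to 10.5 in P53-/- serum, and *Thy1* was called lower in 2i than in serum in both genotypes. The sum of 5 mesoderm markers was 11.03 to 12.96 in WT 2i and 7.82 to 12.6 in P53-/- 2i, against 1.497 to 1.671 in WT serum and 1.07 to 1.52 in P53-/- serum. The sum of 10 G2/M genes was 295 to 339 in WT 2i and 420 to 494 in P53-/- 2i. In serum it was 656 to 659 in WT and 662 to 702 in P53-/-, and 5 of the 10 were called higher without P53 in 2i. The sum of 10 S phase genes was 986 to 1082 in WT 2i and 1158 to 1216 in P53-/- 2i. In serum that sum went the other way, with 1227 to 1260 in WT and 1115 to 1126 in P53-/-. Of the S phase genes 0 were called without P53 in either culture. The sum of 7 trophoblast markers, mostly the keratin gene *Krt8* in 2i, was 78.0 to 129.8 in WT 2i, 64.7 to 66.0 in P53-/- 2i, 19.3 to 19.7 in WT serum and 11.7 to 18.8 in P53-/- serum. Both P53-/- libraries were below both WT libraries in each culture. The sum of 5 neural markers was 28.6 to 30.7 in WT 2i and 17.8 to 22.4 in P53-/- 2i, and 22.0 to 24.2 in WT serum and 32.8 to 35.3 in P53-/- serum. *Tubb3* of this list was called lower in 2i (by limma, adjusted p = 0.054, at a log2 fold change of −0.61). Its change in serum had the opposite sign (0.72) and was not called. Of the 3 neural markers tested, *Sox1* (−0.68) and *Map2* (1.06) differed in direction in 2i, and neither was called. *Gata4* was the 1 of 6 primitive endoderm markers that was tested. It was called lower with both cultures averaged (−1.12, limma adjusted p = 0.0753), but not in 2i (−0.81) or serum (−1.43) taken singly. The part of these markers in the results below was not tested.

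**Figure D1:**
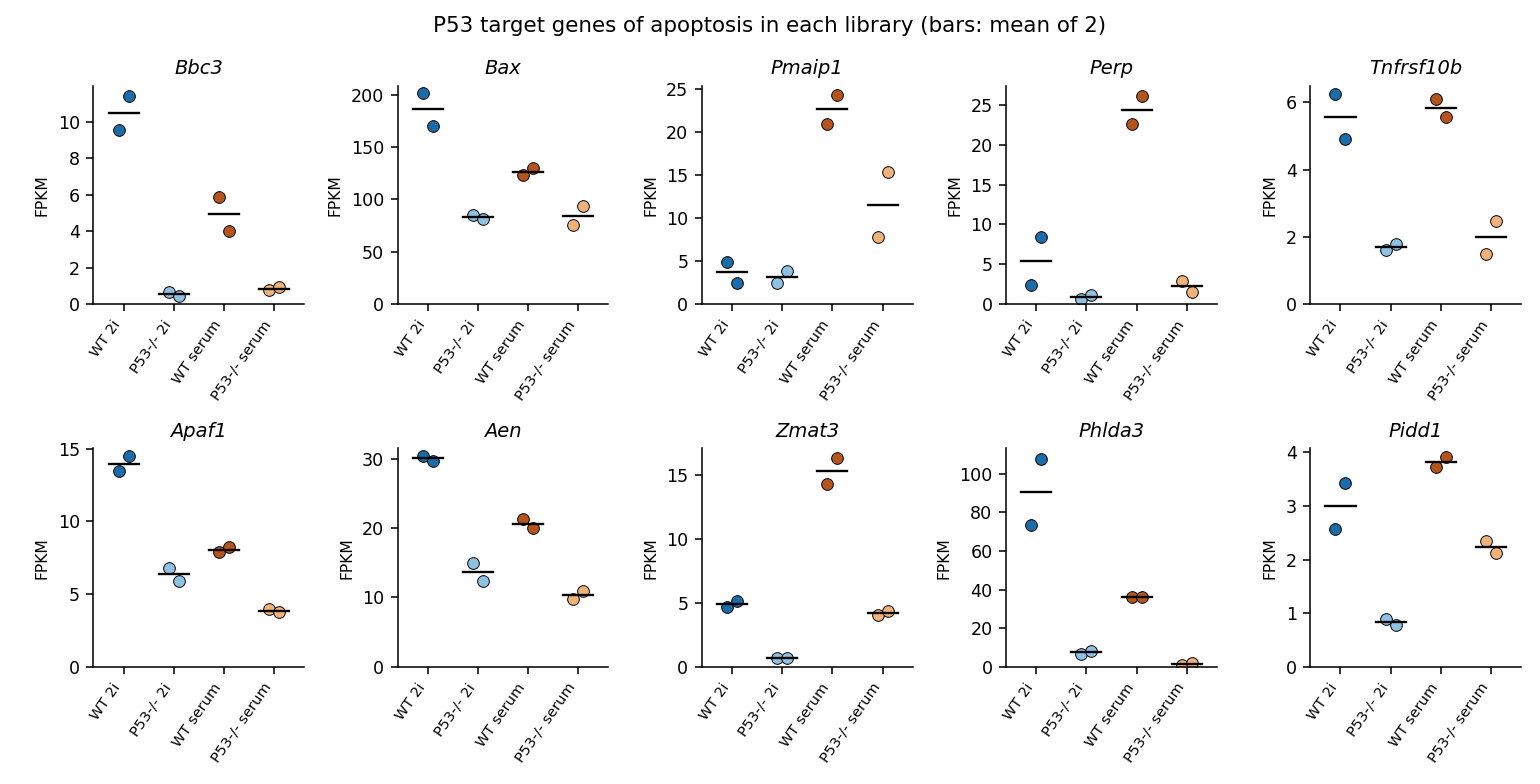
FPKM of each of the 10 genes (vertical axes, linear from 0, one scale per gene) in the 2 libraries of WT 2i, P53-/- 2i, WT serum and P53-/- serum, with bars at the mean of 2. The P53-/- points lie below the WT points of the same culture in every panel except *Pmaip1* in 2i, where WT had 4.87 and 2.53 and P53-/- had 2.46 and 3.89.

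To see how far the expression of these genes rested on P53, P53-/- was compared with WT in each culture. In 2i, 9 of the 10 genes were lower in P53-/- ESCs and none was higher. In serum 7 of the 10 were lower and none higher. A call needed an adjusted p under 0.1 together with a change of more than 1.5-fold (limma on log2(FPKM + 0.1), Benjamini-Hochberg over 12572 genes). In 2i, 5.97% of all genes tested were called lower and 4.36% higher, and in serum 0.883% were called lower and 0.135% higher (1.02% either way). The median log2 fold change of the 10 genes was −1.68 in 2i and −1.29 in serum, beside 0.02 over all genes in either culture. The 7 genes called in serum (*Bbc3*, *Perp*, *Tnfrsf10b*, *Apaf1*, *Aen*, *Zmat3* and *Phlda3*) were called in 2i as well, and 0.676% of all genes were called lower in both. With both cultures averaged, 9 of 10 were called lower, and none higher, against 4.02% and 1.98% of all genes. Both P53-/- libraries lay below both WT libraries for 9 of the 10 genes in 2i and for all 10 in serum, as they did for 24.7% and 21.8% of all genes. The reverse order, which none of the 10 had in either culture, was that of 29% of all genes in 2i and of 25.7% in serum. With 2 libraries against 2 an exact permutation test of a single gene cannot go below p = 0.33, and each call therefore rests on the spread that limma pools over genes. Fitted to the libraries of 1 culture alone, limma called 5 of the 10 in 2i (without *Perp*, *Tnfrsf10b*, *Apaf1* and *Pidd1*) and 2 in serum (*Zmat3* and *Phlda3*). Leaving out 1 of the 8 libraries gave 8 to 9 calls in 2i and 2 to 7 in serum, where 2 were left without WT serum library 1, 3 without WT serum library 2 and 4 without either P53-/- serum library. After removal of small RNA genes and rescaling there were 3 in 2i, 3 in serum and 5 averaged. The share of all genes called under these other settings is not given, so these counts cannot be set against it. In such bulk samples fewer expressing cells and less RNA per cell cannot be told apart.

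Among the BH3-only genes, *Bbc3* lost most of its expression in both cultures and *Pmaip1* did not pass the test in either. The FPKM of *Bbc3* was 9.54 and 11.4 in the WT 2i libraries, against 0.697 and 0.476 in the P53-/- 2i libraries. In serum it was 5.89 and 4.0 in the WT libraries, against 0.756 and 0.947 in the P53-/- libraries. Every WT library was thus above every P53-/- library, and the mean left without P53 was 5.6% of WT in 2i and 17.2% in serum. Its log2 fold change was −3.96 (SE 0.28, limma adjusted p = 0.000394) in 2i and −2.39 (SE 0.28, limma adjusted p = 0.0112) in serum. The call in serum was lost without WT serum library 1 (limma adjusted p = 0.144). The P53-/- values are near the floor, since those of 2i correspond to an estimated 12.1 and 4.6 fragments. By mean FPKM, *Bbc3* was the fifth of the 10 genes in WT 2i and the last in both P53-/- groups.

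*Pmaip1* had FPKM values of 4.87 and 2.53 in the WT 2i libraries, against 2.46 and 3.89 in the P53-/- 2i libraries, which overlap. In serum its values were 20.99 and 24.3 in the WT libraries, against 7.79 and 15.4 in the P53-/- libraries, which do not. This was a log2 fold change of −0.18 in 2i, with a 95% confidence interval of −1.10 to 0.75 (limma adjusted p = 0.834), and −1.04 in serum (SE 0.40, limma adjusted p = 0.39). Single pairs of libraries left 50.6% to 154% of WT in 2i, so that the data do not show that *Pmaip1* is without a P53 effect there. In serum 51.1% of the WT mean was left, and the P53-/- libraries differed more from each other than the WT libraries did.

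*Bax*, which encodes a pore-forming member of the BCL2 family, was the highest of the 10 genes in all 4 groups and kept the largest share of its expression in serum. Its FPKM was 202 and 170.1 in the WT 2i libraries, against 84.9 and 81.2 in the P53-/- 2i libraries. In serum it was 123 and 130.2 in the WT libraries, against 75.4 and 93.5 in the P53-/- libraries. The P53-/- level was nearly the same in both cultures (83.1 ± 2.62 in 2i and 84.4 ± 12.8 in serum, SD, n = 2). The log2 fold change was −1.16 (SE 0.15, limma adjusted p = 0.0059) in 2i, with 44.7% of WT left. In serum it was −0.59 (SE 0.15, limma adjusted p = 0.185), with 66.7% left, and did not pass the threshold. *Bax* overlaps a readthrough gene on the same strand, *Gm45808*, which is not among the listed symbols, and fragments of either could count for it.

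*Tnfrsf10b*, the receptor of the set, fell to about the same level in both cultures. Its FPKM was 6.25 and 4.90 in the WT 2i libraries, against 1.62 and 1.78 in the P53-/- 2i libraries. In serum it was 6.11 and 5.55 in the WT libraries, against 1.5 and 2.48 in the P53-/- libraries. All 4 WT libraries lay above all 4 P53-/- libraries, and 30.5% of WT was left in 2i and 34.1% in serum. Its log2 fold change was −1.65 (SE 0.26, limma adjusted p = 0.0134) in 2i and −1.54 (SE 0.26, limma adjusted p = 0.0596) in serum. In serum the call was lost without any one of 6 libraries (limma adjusted p between 0.102 and 0.455), the exceptions being WT 2i library 2 and P53-/- serum library 2. *Tnfsf10*, the gene of its ligand TRAIL, was listed at 0 in all 8 libraries.

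*Apaf1*, the core of the apoptosome, and *Pidd1*, the core of the PIDDosome, both fell in 2i, and *Apaf1* also in serum. *Apaf1* had FPKM values of 13.5 and 14.5 in the WT 2i libraries, against 6.83 and 5.90 in the P53-/- 2i libraries. In serum they were 7.90 and 8.22 in the WT serum libraries, against 3.97 and 3.77 in the P53-/- serum libraries. Its loss was alike in size in both cultures, with 45.5% and 48.0% of WT left. The log2 fold changes were −1.13 (SE 0.14, limma adjusted p = 0.00601) and −1.04 (SE 0.14, limma adjusted p = 0.0242). The serum call was lost without either WT serum library or without P53-/- serum library 2 (limma adjusted p between 0.157 and 0.269).

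*Pidd1* had the lowest mean of the 10 genes in both WT groups. In WT 2i this held for the mean only, since *Perp* was lower in library 1 (2.37) and *Pmaip1* in library 2 (2.53). Its FPKM was 2.56 and 3.43 in the WT 2i libraries, against 0.896 and 0.783 in the P53-/- 2i libraries, where 28.0% was left on an estimated 31.6 and 15.6 fragments. The serum values were 3.72 and 3.91 in the WT libraries, against 2.35 and 2.12 in the P53-/- libraries, where 58.6% was left. The groups did not overlap in either culture, but only 2i passed the threshold. This was a log2 fold change of −1.71 (SE 0.23, limma adjusted p = 0.00746) in 2i and −0.75 (SE 0.23, limma adjusted p = 0.275) in serum.

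*Perp* had the largest standard errors of the set, and its P53-/- 2i values rest on an estimated 11.5 and 12.5 fragments. Its FPKM was 2.37 and 8.49 in the WT 2i libraries, against 0.616 and 1.19 in the P53-/- 2i libraries. Serum values were 22.6 and 26.1 in the WT libraries, against 2.94 and 1.57 in the P53-/- libraries. The groups did not overlap in either culture, with 16.7% of WT left in 2i and 9.26% in serum. The log2 fold change was −2.26 (SE 0.57, limma adjusted p = 0.0587) in 2i and −3.44 (SE 0.57, limma adjusted p = 0.0557) in serum. The 2i call was lost without either P53-/- 2i library, WT 2i library 2 or either WT serum library (limma adjusted p between 0.138 and 0.222). The mean of *Perp* in 2i was 6.00-fold lower without P53, but 2.62-fold without WT 2i library 2 (log2 fold change −1.36) and 9.39-fold without WT 2i library 1. The serum call was lost without any one of the P53-/- libraries or of the WT serum libraries (limma adjusted p between 0.118 and 0.411). With both cultures averaged the log2 fold change was −2.85 (SE 0.41, limma adjusted p = 0.00891), and this call held whichever library was left out.

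*Phlda3* showed the largest fall of the set in serum and *Zmat3* the smallest adjusted p in 2i, and these were the 2 genes whose calls held in both cultures whichever library was left out. *Phlda3* had FPKM values of 73.4 and 108 in the WT 2i libraries, against 6.77 and 8.31 in the P53-/- 2i libraries. In serum it had 36.4 and 36.4 in the WT libraries, against 0.943 and 2.04 in the P53-/- libraries, an estimated 16.7 and 27.9 fragments. Its mean was thus 12.01-fold lower in 2i and 24.4-fold lower in serum (38.6-fold without P53-/- serum library 2), and from the second of the 10 genes in WT serum it went to the ninth in P53-/- serum. Its log2 fold change was −3.55 (SE 0.33, limma adjusted p = 0.00158) in 2i and −4.61 (SE 0.33, limma adjusted p = 0.00109) in serum.

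*Zmat3* had FPKM values of 4.70 and 5.17 in the WT 2i libraries, against 0.680 and 0.685 in the P53-/- 2i libraries. In serum it had 14.3 and 16.3 in the WT libraries, against 4.08 and 4.36 in the P53-/- libraries. The P53-/- serum libraries therefore reached nearly the level of WT 2i. This was a log2 fold change of −2.69 (SE 0.17, limma adjusted p = 0.000209) in 2i and −1.83 (SE 0.17, limma adjusted p = 0.0043) in serum.

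*Aen*, whose nuclease acts in the nucleus, lost about as much as *Apaf1*. Its FPKM was 30.4 and 29.6 in the WT 2i libraries, against 14.98 and 12.4 in the P53-/- 2i libraries. In serum it was 21.2 and 20.03 in the WT serum libraries, against 9.77 and 10.98 in the P53-/- serum libraries. The mean left was 45.6% in 2i and 50.3% in serum. The log2 fold change was −1.13 (SE 0.14, limma adjusted p = 0.00489) in 2i and −0.99 (SE 0.14, limma adjusted p = 0.0252) in serum. The serum call was lost without any one of the 4 serum libraries (limma adjusted p between 0.102 and 0.268).

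**Figure D2:**
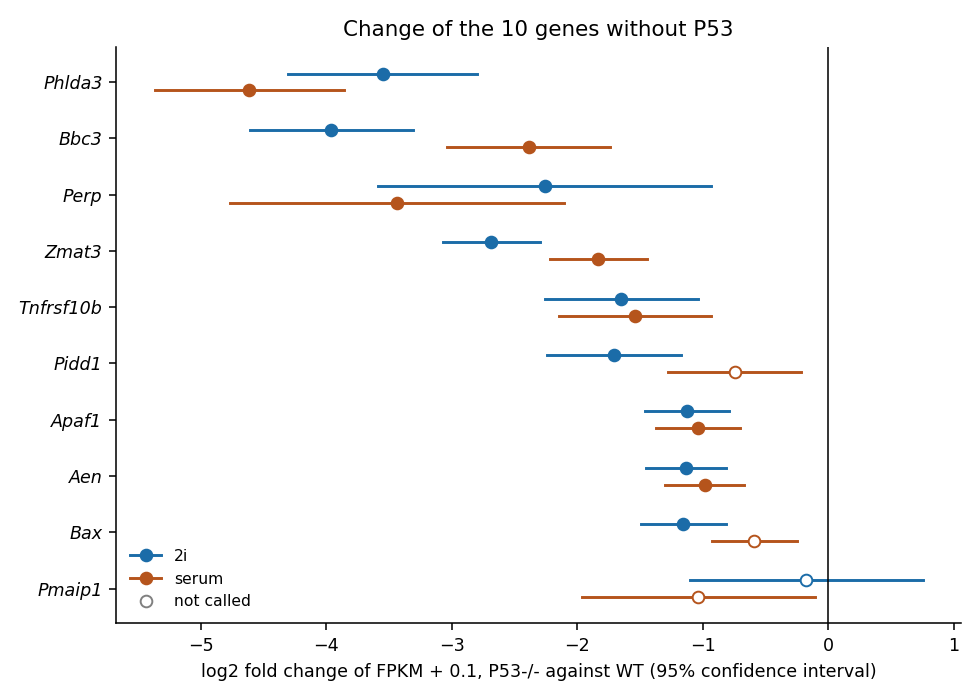
Log2 fold change of FPKM + 0.1 in P53-/- against WT for each gene (horizontal axis, 95% confidence intervals), in 2i (blue) and serum (orange), with open points for genes that were not called. The estimates run from −4.61 for *Phlda3* in serum to −0.18 for *Pmaip1* in 2i, and the interval of *Pmaip1* in 2i is the one that crosses 0.

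Whether the effect of P53 loss differed between 2i and serum was tested as an interaction, the log2 fold change in 2i minus that in serum. None of the 10 genes was called (limma), against 0.207% of all genes in either direction, and 4 had an unadjusted p under 0.05 (*Bbc3*, *Bax*, *Zmat3* and *Pidd1*), beside 1651 of the 12572 genes. *Bbc3* had the largest difference toward 2i, −1.57 (95% confidence interval −2.49 to −0.65, limma adjusted p = 0.192). *Zmat3* (−0.85, limma adjusted p = 0.214), *Pidd1* (−0.96, limma adjusted p = 0.291) and *Bax* (−0.56, limma adjusted p = 0.321) had values of the same sign. Toward serum, *Perp* had 1.18 (95% confidence interval −0.70 to 3.05), *Phlda3* 1.06 (−0.01 to 2.13) and *Pmaip1* 0.86 (−0.45 to 2.17). The differences of *Apaf1* (−0.09, 95% confidence interval −0.56 to 0.38), *Aen* (−0.15, −0.60 to 0.30) and *Tnfrsf10b* (−0.10, −0.96 to 0.75) were the smallest. That *Bax* and *Pidd1* passed the threshold in 2i and not in serum is therefore not shown to be a difference between the cultures.

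The levels of the genes in WT ESCs differed between the cultures in both directions. In 2i compared with serum, *Bbc3*, *Phlda3* and *Apaf1* were higher and *Pmaip1*, *Perp* and *Zmat3* were lower. Over all genes 27.2% were called higher in WT 2i and 28.6% lower, so that 6 of 10 is near the 55.7% called either way. The WT 2i libraries in this comparison are those of the P53 comparison in 2i. *Pmaip1* was 6.12-fold lower in 2i (log2 fold change −2.65, SE 0.40, limma adjusted p = 0.000895), the largest difference of the set. *Perp* was 4.49-fold lower (log2 fold change −2.41, SE 0.57, limma adjusted p = 0.00782), and its log2 fold change was −1.51 without WT 2i library 1 and −3.30 without library 2. *Zmat3* was 3.10-fold lower (log2 fold change −1.61, limma adjusted p = 0.000162). *Phlda3* was 2.49-fold higher (log2 fold change 1.29, limma adjusted p = 0.0103), *Bbc3* 2.12-fold higher (1.09, limma adjusted p = 0.0114) and *Apaf1* 1.73-fold higher (0.79, limma adjusted p = 0.00227).

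The WT libraries of the cultures did not overlap for 5 genes that were higher in 2i and 4 that were lower, as for 40% and 41.7% of all genes. *Bax* and *Aen* were among the former, but their differences were under 1.5-fold (log2 fold change 0.55, limma adjusted p = 0.0126, and 0.54, limma adjusted p = 0.0105). Without WT 2i library 2 or WT serum library 2, *Bax* passed that fold, with 0.67 and 0.59. *Tnfrsf10b* had a log2 fold change of −0.07 (95% confidence interval −0.68 to 0.53) and *Pidd1* one of −0.35 (−0.88 to 0.18). The WT 2i order from the highest mean FPKM down was *Bax*, *Phlda3*, *Aen*, *Apaf1*, *Bbc3*, *Tnfrsf10b*, *Perp*, *Zmat3*, *Pmaip1*, *Pidd1*. From *Tnfrsf10b* down this order is close, since the WT 2i values of *Tnfrsf10b*, *Perp*, *Zmat3*, *Pmaip1* and *Pidd1* overlap in part. In WT serum *Perp* was the third and *Pmaip1* the fourth.

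The same comparison in P53-/- ESCs shows which culture differences were present without P53. *Zmat3*, *Pmaip1*, *Pidd1* and *Perp* were lower in P53-/- 2i than in P53-/- serum and *Phlda3* and *Apaf1* were higher, while 30.1% of all genes were called lower and 28% higher (58.2% either way). The libraries did not overlap for 5 genes that were lower and 3 that were higher in P53-/- 2i, beside 42.1% and 39.7% of all genes. *Zmat3* was 6.19-fold lower (log2 fold change −2.46, SE 0.17, limma adjusted p = 3.03e-05) and *Pmaip1* 3.65-fold lower (−1.79, SE 0.40, limma adjusted p = 0.0055). *Pidd1* was 2.66-fold lower (−1.32, SE 0.23, limma adjusted p = 0.00164). *Phlda3*, at 6.77 and 8.31 against 0.943 and 2.04, was 5.06-fold higher (2.35, SE 0.33, limma adjusted p = 0.000536), or 7.99-fold without P53-/- serum library 2. *Apaf1* was 1.64-fold higher (0.70, SE 0.14, limma adjusted p = 0.00365), close to its difference in WT. *Perp* was 2.50-fold lower (−1.23, SE 0.57, limma adjusted p = 0.0951), a call lost without P53-/- 2i library 1 or any one of the 4 serum libraries (limma adjusted p between 0.103 and 0.392).

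*Bbc3*, which was higher in WT 2i than in WT serum, had 0.697 and 0.476 in P53-/- 2i and 0.756 and 0.947 in P53-/- serum, a log2 fold change of −0.48 (95% confidence interval −1.13 to 0.17, limma adjusted p = 0.17). *Bax* had a log2 fold change of −0.01 without P53 (95% confidence interval −0.35 to 0.32), which was 0.037 with median-ratio scaling and 0.050 with quantile normalization. *Tnfrsf10b* had −0.18 (−0.78 to 0.43) and *Aen* 0.39, below the fold threshold (limma adjusted p = 0.0368). For each gene, the culture difference in WT minus that in P53-/- equals the interaction given above with its sign turned, and no gene passed the threshold there.

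The order of the 4 group means fell into a few patterns. *Phlda3*, *Aen* and *Apaf1* were highest in WT 2i, then WT serum, then P53-/- 2i, and lowest in P53-/- serum, and the libraries of neighbouring groups did not overlap for any of them. *Bbc3* and *Bax* had WT 2i above WT serum, and their P53-/- groups at the bottom did not differ by the test. *Zmat3*, *Pidd1*, *Perp* and *Tnfrsf10b* had their highest mean in WT serum, followed by WT 2i, P53-/- serum and P53-/- 2i. Of these, the WT groups of *Pidd1* and *Tnfrsf10b* and the P53-/- groups of *Tnfrsf10b* did not differ by the test, and for *Perp* the WT 2i and P53-/- serum libraries overlapped. *Pmaip1* alone had both serum groups above both 2i groups, with P53-/- serum at 7.79 and 15.4 above WT 2i at 4.87 and 2.53.

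**Figure D3:**
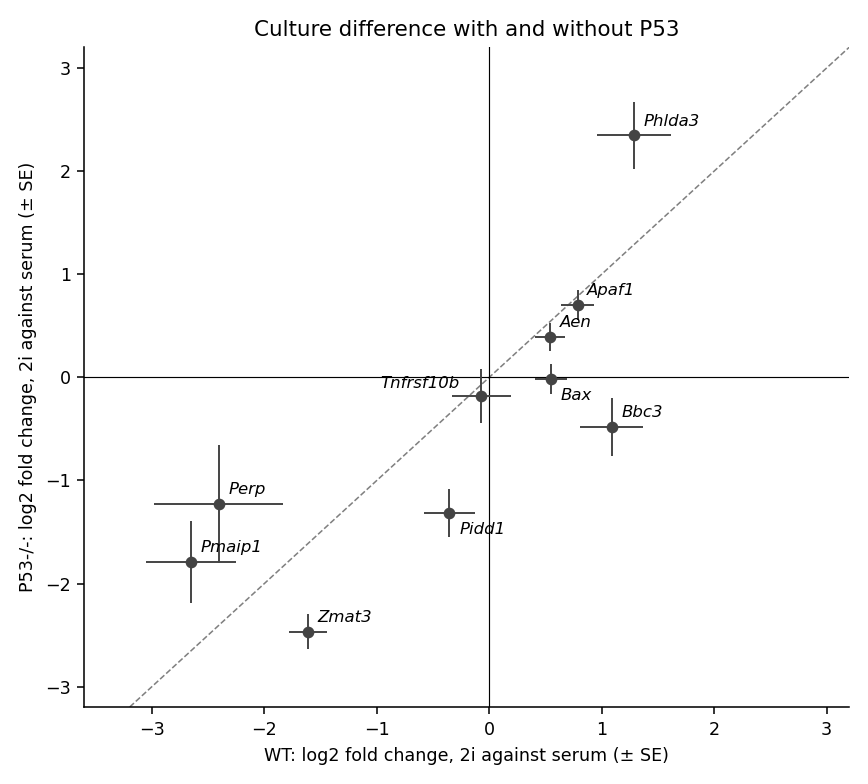
Log2 fold change of 2i against serum in WT ESCs (horizontal axis) and in P53-/- ESCs (vertical axis) for the 10 genes, with bars of 1 SE and a dashed line where both are equal. *Apaf1*, *Aen* and *Tnfrsf10b* lie on or near the line, *Bbc3* lies to the right at 1.09 and −0.48, and *Phlda3* above the line at 1.29 and 2.35.

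Other genes of the apoptosis machinery were compared in the same way, through 7 lists of genes chosen for their role: survival, pore-forming and BH3-only members of the BCL2 family, death receptor signalling, mitochondrial release, PIDDosome partners, and inhibitors of apoptosis. Of the 37 genes on these lists, 30 were tested. None of the 30 was called in either direction without P53, beside 10.3% of all genes in 2i and 1.02% in serum (limma). At an unadjusted p under 0.05 there were 6 of the 30 in 2i, beside 25.2% of all genes, and 4 in serum, beside 11.3%. The median log2 fold change of the 30 genes was −0.098 in 2i and 0.024 in serum, beside −1.68 and −1.29 for the 10 P53 target genes.

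None of the counterparts of the P53 targets named next was called without P53. *Bak1*, which like *Bax* forms pores, had 17.6 and 17.1 in the WT 2i libraries, against 20.8 and 20.2 in the P53-/- 2i libraries (log2 fold change 0.24, limma adjusted p = 0.369). *Mcl1*, the highest survival gene, had 123 and 128 in the WT 2i libraries, against 96.3 and 99.4 in the P53-/- 2i libraries (−0.36, limma adjusted p = 0.118). Of the other BH3-only genes 6 of 6 were tested, and *Bcl2l11*, which encodes BIM, had the lowest value in 2i (−0.53, limma adjusted p = 0.127) and *Hrk* the highest (0.76, limma adjusted p = 0.13). *Casp9* and *Cycs*, whose products join APAF1 in the apoptosome, had 0.22 (limma adjusted p = 0.607) and 0.50 (limma adjusted p = 0.0769) in 2i, the latter under 1.5-fold. In serum their log2 fold changes were −0.56 and 0.45 (limma adjusted p = 0.412 and 0.294). *Casp2* and *Cradd*, the partners of *Pidd1*, had 0.04 and −0.77 in 2i (limma adjusted p = 0.91 and 0.167). The receptor gene *Fas* was between 0 and 0.449 FPKM in all libraries and was not tested. Between the WT cultures, 9 of the 30 were called higher and 9 lower in 2i, beside 27.2% and 28.6% of all genes.

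**Figure D4:**
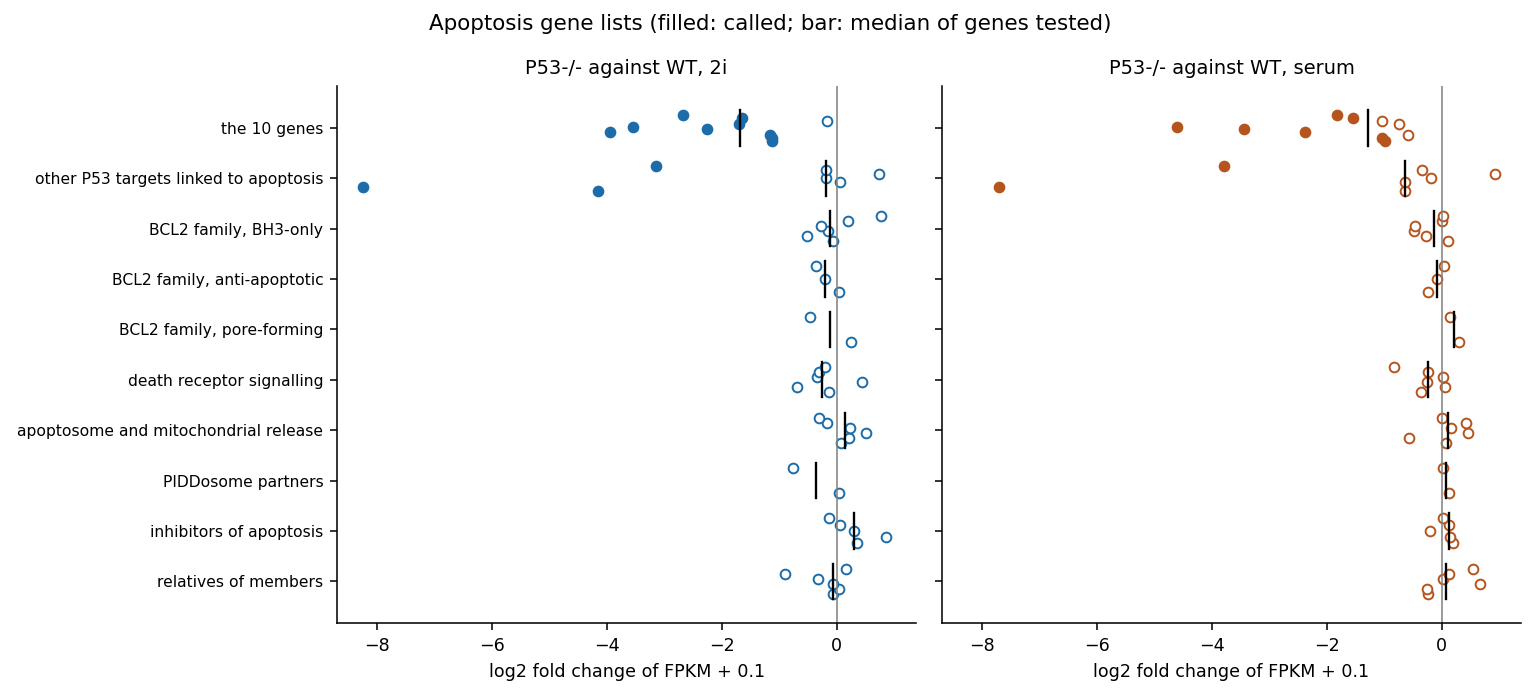
Log2 fold change of FPKM + 0.1 in P53-/- against WT (horizontal axes) in 2i (left) and serum (right) for the 10 genes and for 9 other lists, with filled points for called genes and bars at each list's median. The 10 genes have medians of −1.68 and −1.29, while the 7 lists of other apoptosis genes hold no filled point.

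A list of 7 other P53 targets linked to apoptosis was mixed. *Eda2r*, *Trp53inp1* and *Dapk1* were called lower in 2i, *Eda2r* and *Trp53inp1* in serum, and none was higher in either culture. *Eda2r*, a receptor of the TNF receptor family, had FPKM values of 34.4 and 39.5 in the WT 2i libraries, against 0.0485 and 0 in the P53-/- 2i libraries (limma adjusted p = 1.52e-05). In serum it had 55.1 and 59.8 in the WT libraries, against 0.109 and 0.263 in the P53-/- libraries. *Trp53inp1*, whose product assists P53 under stress, had 102 and 114 in the WT 2i libraries, against 12.8 and 11.3 in the P53-/- 2i libraries (log2 fold change −3.15, limma adjusted p = 1.52e-05), and in serum the log2 fold change was −3.80 (limma adjusted p = 2.51e-05). *Dapk1*, a death-associated kinase, went from 3.84 and 5.77 (WT 2i) to 0.205 and 0.135 (P53-/- 2i), while serum values were 8.17 and 8.73 (WT) and 5.14 and 5.62 (P53-/-). Its effect differed between the cultures (interaction −3.53, limma adjusted p = 0.0109). *Ei24*, *Siva1* and *Triap1* were not called in either culture, and *Ei24* in serum passed the fold threshold alone (log2 fold change −0.63, limma adjusted p = 0.106). *Steap3*, a metalloreductase, read 0.727 and 1.46 (WT 2i), 1.58 and 2.00 (P53-/- 2i), 3.17 and 3.21 (WT serum) and 6.38 and 5.88 (P53-/- serum), and was called higher only with both cultures averaged (log2 fold change 0.82, limma adjusted p = 0.0705).

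Relatives of the 10 genes by name and sequence family (*Phlda1*, *Phlda2*, *Zmat1*, *Zmat2*, *Zmat4*, *Zmat5*, *Isg20* and *Isg20l2*) were also looked at, and 6 of the 8 were tested. None was called in either P53 comparison (limma, 0 in 2i and 1 in serum at an unadjusted p under 0.05). *Phlda2*, for instance, had 2.04 and 4.02 in the WT 2i libraries, against 3.18 and 2.36 in the P53-/- 2i libraries (log2 fold change −0.06, limma adjusted p = 0.932), beside the −3.55 of *Phlda3*.

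To describe which genes followed the same pattern over the 8 libraries, the log2(FPKM + 0.1) values of the 10 genes were each centred on their own mean and averaged. The average was 0.71 and 0.88 (WT 2i), −1.18 and −1.10 (P53-/- 2i), 1.08 and 1.09 (WT serum) and −0.86 and −0.61 (P53-/- serum). Of 8129 other genes whose mean FPKM reached 5, *Eda2r* (Pearson r = 0.996), *Wdr35* (0.986), *Rnf169* (0.986), *Mdm2* (0.979) and *Mettl6* (0.974) were the most similar, over 8 libraries that share 4 groups. *Wdr35*, which encodes a protein of cilia, had 14.7 and 26.0 in the WT 2i libraries, against 1.88 and 2.60 in the P53-/- 2i libraries. *Rnf169*, a ubiquitin ligase of DNA break sites, had 6.37 and 9.09 in the WT 2i libraries, against 2.64 and 2.76 in the P53-/- 2i libraries. Both were chosen for following the 10 genes over these same libraries, so that being lower without P53 was part of the choice.

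Among the 10 genes themselves, each set against the average of the others, *Tnfrsf10b* was closest (r = 0.966) and *Pmaip1* farthest (r = 0.29). The closest pairs were *Apaf1* with *Aen* (r = 0.974), *Phlda3* with *Aen* (0.969), *Zmat3* with *Pidd1* (0.967) and *Bbc3* with *Bax* (0.951). *Perp* and *Pmaip1* were each closest to *Zmat3* (0.898 and 0.756), and *Tnfrsf10b* was closest to *Bbc3* (0.934). *Tnfrsf10b* and *Bbc3* had WT culture differences of opposite sign (−0.07 and 1.09). The other partners had the same sign in their WT culture difference, above 0 for *Apaf1*, *Phlda3*, *Aen*, *Bbc3* and *Bax* and below 0 for *Zmat3*, *Pidd1*, *Perp* and *Pmaip1*, which enters r. The lowest r of any pair was −0.33, between *Apaf1* and *Pmaip1*.

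**Figure D5:**
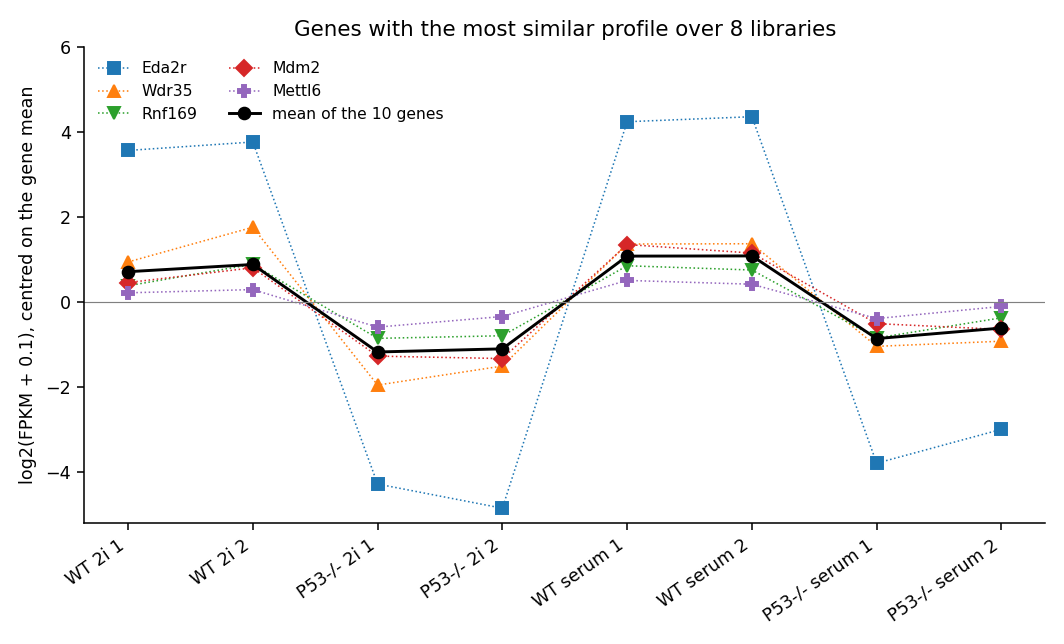
Log2(FPKM + 0.1) centred on each gene's mean (vertical axis) in each of the 8 libraries (horizontal axis, grouped by genotype and culture) for the average of the 10 genes (black) and the 5 genes most like it. All 6 lines are above 0 in the 4 WT libraries and below 0 in the 4 P53-/- libraries, and *Eda2r* spans the widest range.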

How the data were processed

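WT and P53-/- R1 FUCCI ESCs sorted in G1 phase were sequenced after ribosomal RNA depletion, with stranded libraries made from random primers. The authors deposited 1 table of FPKM values per gene symbol, with a column per library. The submitters' processing notes name STAR, Cufflinks, DESeq2 and the build mm9, without versions or settings, and the annotation is not given in the sources used here. Positions and transcript lengths came from GENCODE M21 and promoters from RefSeq, both on GRCm38, and 98.2% of symbols matched by name. No further scaling was applied, since median-ratio factors lay between 0.9875 and 1.028. Small RNA genes, taken by name, made up 85.2% to 87.0% of the FPKM sum in the 2i libraries and 94.7% to 97.0% in the serum libraries. FPKM values hold no counts, so no count model was used. Depth was estimated from the steps between low FPKM values of 4503 genes with 1 transcript over 500 bases.

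limma 3.58.1 (R 4.3.3) was fitted to log2(FPKM + 0.1) wherever the mean FPKM reached 0.5, in 1 fit of the 4 groups, with eBayes and trend and Benjamini-Hochberg adjustment over all 12572 genes. Calls needed an adjusted p under 0.1 together with a change of more than 1.5-fold. The thresholds are those of the study, but its calls differ. It reported more genes in both cultures than the 1299 in 2i and 128 in serum called here. A fold change is on the log2(FPKM + 0.1) scale and understates changes of low genes. Percentages left and folds are ratios of mean FPKM. The steps were tested on simulated data.

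The genes and lists were chosen with earlier results of these data known. 1 list of apoptosis genes is left out whole, because it holds an item that is not reported here. All 10 genes were named, with genes called without P53 from the lists of apoptosis genes and P53 targets, the 5 genes most like their average and each gene's closest partner. *Bak1*, *Mcl1*, *Bcl2l11*, *Hrk*, *Casp9*, *Cycs*, *Casp2*, *Cradd*, *Fas*, *Tnfsf10*, *Ei24*, *Siva1*, *Triap1*, *Phlda2* and the marker genes were named outside that rule, for their roles and after their values were seen. Groups came from the column names, which carry no replicate number, and 0 per-sample columns were left unused. Alternatives were other pseudocounts, filters, scalings, fits and thresholds, array weights, removal of small RNA genes, each library left out in turn and, added after seeing the data, protein-coding genes only. P21-/- ESCs and their WT controls (4 of the 12 samples) were not analysed here. Figures were drawn with matplotlib 3.10.9 under Python 3.11.15.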

Additional observations from a re-analysis of the deposited data

How the results depend on the processing

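No paired analysis was possible because the columns carry no replicate numbers. The fit took all libraries as independent, although the same clones may have given the P53-/- libraries of both cultures. Of the values recomputed for single genes, 1082 kept their direction and side of the threshold, 73 lost the threshold, 5 gained it and 20 changed sign, none of them a called value. The number of genes called without P53 in 2i (9) was 5 and that in serum (7) was 2 when each culture was fitted alone, with fewer libraries behind the spread. After removal of small RNA genes by name and rescaling, 3 were called in 2i, 3 in serum, 5 with both cultures averaged, 3 between the WT cultures and 2 between the P53-/- cultures. That scaling moved the median log2 fold change of all genes to 0.61 for the interaction and −0.52 in serum, since 48.9% to 82.7% of the remaining FPKM sum was still not protein-coding. With protein-coding genes only, rescaled, the counts were 9, 7, 9, 6 and 6. Leaving out single libraries, the counts ran from 8 to 9 in 2i, 2 to 7 in serum, 9 to 9 averaged, 6 to 7 between the WT cultures, 5 to 6 between the P53-/- cultures and 0 to 0 for the interaction. In serum the count was 2 without WT serum library 1, 3 without library 2, 4 without either P53-/- serum library, 5 without either P53-/- 2i library and 6 without WT 2i library 1. At an adjusted p under 0.05 the counts were 8 in 2i and 5 in serum, and without trend they were the same. With each pair of groups fitted alone no value exists for the average and the interaction. Shares of all genes called are given for the main fit only, so the counts under other settings have none beside them.

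Changes of sign were as follows, on the log2 scale, and their cause was not tested. Without small RNA genes the interaction was 0.050 for *Bax*, 0.47 for *Tnfrsf10b*, 0.51 for *Apaf1* and 0.46 for *Aen*, the WT culture difference was 0.38 for *Tnfrsf10b* and 0.092 for *Pidd1*, and the P53-/- culture difference was 0.46 for *Bbc3*, 1.06 for *Bax* and 0.85 for *Tnfrsf10b*. The P53-/- culture difference of *Bax* was 0.037 with median-ratio scaling and 0.050 with quantile normalization. Over the libraries left out, *Pmaip1* in 2i ran from −0.64 (without WT 2i library 2) to 0.28 (without WT 2i library 1), and was 0.14 without P53-/- 2i library 1. The interaction ran from −0.45 to 0.24 for *Tnfrsf10b* and from −0.19 to 0.018 for *Apaf1*, and the WT culture difference of *Tnfrsf10b* from −0.24 to 0.10. The P53-/- culture difference ran from −0.17 to 0.14 for *Bax* and from −0.52 to 0.17 for *Tnfrsf10b*. Leaving out P53-/- serum library 2 gave the highest value of *Tnfrsf10b* for the interaction and of both genes for the P53-/- culture difference.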
